A study of Homo sapiens with 4 samples.

Results

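The pyruvate dehydrogenase complex and its control genes were followed in U87 cells, an established human glioblastoma line, with and without carnosine, the dipeptide beta-alanyl-L-histidine. The 10 genes are the kinases PDK1, PDK2, PDK3 and PDK4, the phosphatases PDP1 and PDP2, and the subunit genes PDHA1, PDHB, PDHX and DLAT. They were taken by symbol from a table of raw gene counts, and all 10 were found among its 58219 genes and passed the filter on low counts, which left 16340. Their identity was not chosen from their values by the rule, but the set was put together with earlier results of these data known. The carnosine libraries came from cells kept for 24 h in fresh medium with 50 mM carnosine (n = 2), and the control libraries from cells kept for the same time in fresh medium without it (n = 2). All cells were of 1 line in a medium with glucose and serum and no added pyruvate, and the 4 libraries include no cells given another solute at that concentration. The comparison asks which of these transcripts differ when carnosine is present.

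The complex stands where glycolysis meets the mitochondrion: it turns pyruvate into acetyl-CoA, which enters the citric acid cycle. The E1 enzyme, built from PDHA1 and PDHB, releases carbon dioxide from pyruvate, the E2 core enzyme DLAT passes the acetyl group to coenzyme A on a lipoyl arm, and PDHX holds the E3 enzyme DLD on that core. The kinases switch E1 off by phosphorylation and the phosphatases switch it on again. In tumour cells PDK1 is known as a target of the hypoxia factor HIF-1, while PDK4 is known as a gene of fasting that answers to PPAR, FOXO and glucocorticoid receptors. PDK1 here is pyruvate dehydrogenase kinase, not the signalling kinase PDPK1 that shares the abbreviation. RNA was measured, so protein, phosphorylation and enzyme activity are not described.

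Gene counts summed to 57728762 and 51632970 in carnosine replicates 1 and 2, and to 71766267 and 59155538 in control replicates 1 and 2. RN7SL2, an abundant small RNA, took 3.33% and 4.92% of the counts in the carnosine libraries and 3.13% and 3.66% in the control libraries. With RN7SL2, 4 other abundant small RNAs and the mitochondrial genes left out, PDK4 and PDK1 kept log2 fold changes of 1.76 and -1.11. Of 6 genes expected in the line, 5 were tested, with a summed level of 9088 and 9716 CPM (counts scaled to a common library total, with TMM factors) in carnosine libraries and 10821 and 10378 CPM in control libraries. The glial stem cell factor SOX2 had 2 and 0 counts in the carnosine libraries and 0 in both control libraries. MTAP and the other two genes known to be deleted in U87 had 0 counts in every library, which allows up to 3 counts in each. Blood cell markers summed to 0.0998 and 0.238 CPM with carnosine and 0.169 and 0.239 CPM in controls, and 4 epithelial markers to 1.80 and 1.87 CPM with carnosine and 1.24 and 1.07 CPM in controls. The 3 endothelial markers summed to 6.77 and 5.54 CPM with carnosine, against 2.28 and 2.90 CPM in controls. Nearly all of that was PECAM1, which passed the test (adjusted p = 0.0215), while the defining marker CDH5 was at 0 in all libraries. The part of that difference in the results below was not tested. In such bulk RNA, fewer cells of a kind and less RNA per cell cannot be told apart.

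The promoters of PDK4 and PDK1 are shown because these were the members that passed edgeR's quasi-likelihood test at an adjusted p under 0.05, in opposite directions. Of the 10 members 1 rose and 1 fell, while 8.31% of all genes tested passed, 3.95% higher and 4.36% lower with carnosine. Each line holds the 250 bases before a RefSeq start (GRCh38.p14), 5′ to 3′ on the strand of the gene. The PDK4 window is chr7:95596517-95596766, minus strand, and the PDK1 window is chr2:172555840-172556089, plus strand, before the downstream of the pair of starts that RefSeq lists for PDK1. Capitals mark the core motif of hypoxia-inducible factors, ACGTG, on either strand.
PDK4: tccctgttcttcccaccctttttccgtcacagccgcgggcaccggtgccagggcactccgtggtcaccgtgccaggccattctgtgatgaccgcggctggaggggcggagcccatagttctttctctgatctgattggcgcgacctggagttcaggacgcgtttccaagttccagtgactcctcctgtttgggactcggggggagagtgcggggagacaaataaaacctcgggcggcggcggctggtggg
PDK1: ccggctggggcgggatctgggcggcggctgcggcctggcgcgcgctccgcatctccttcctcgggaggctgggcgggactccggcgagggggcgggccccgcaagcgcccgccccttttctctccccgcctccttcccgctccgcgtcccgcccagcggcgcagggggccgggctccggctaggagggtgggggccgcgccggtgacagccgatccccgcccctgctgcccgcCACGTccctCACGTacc
The PDK1 window held the HIF core at 2 places, beginning 17 and 8 bases before the start, both read on the opposite strand as CACGT. The window of the other PDK1 start and that of PDK4 held none. Of 34943 promoter windows of this length in the table, 18.5% held ACGTG on either strand. The FOXO core GTAAACA was in none of the windows of the 9 members that the table matched, and in 2.98% of all windows. The GC box GGGCGG was found at 7 places in the PDK1 window and 2 in the PDK4 window, and 42.5% of all windows held it. An E-box, CACGTG, which contains the HIF core on both strands, was present in windows of PDK2, PDP2 and PDHB and in 6.32% of all windows. PDHB and PDP2 each held 3 HIF core matches, counted on both strands, and neither passed the test. A window of PDK2 held 2 matches and windows of PDK3, PDHX and DLAT held 1 each, and these genes did not pass either. A match describes letters only, and a missing match says nothing of the factor.

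Carnosine libraries held more PDK4 and less PDK1 transcript, and these were the kinases that passed the test. PDK4 (ENSG00000004799.7, chromosome 7, 95583499 to 95596491, minus strand, GRCh38) is the starvation-induced kinase of heart, muscle and liver. It had 326 and 314 counts in carnosine replicates 1 and 2, against 134 and 90 counts in control replicates 1 and 2. On the CPM scale that was 5.42 and 6.24 with carnosine and 1.88 and 1.53 in controls. Both carnosine libraries lay above both controls although the controls were sequenced more deeply. PDK4 rose 3.40-fold, to 5.83 ± 0.58 CPM with carnosine, against 1.71 ± 0.25 CPM in controls (SD, n = 2 each). The log2 value was 1.76 ± 0.22 (SE), and by the quasi-likelihood test of edgeR the adjusted p was 0.0123. Of all genes tested, 1.87% had a larger change in either direction.

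PDK1 (ENSG00000152256.13, chromosome 2, 172555373 to 172608669, plus strand) had 905 and 572 counts with carnosine and 2219 and 1510 counts in controls. Its CPM values were 15.05 and 11.36 with carnosine and 31.2 and 25.7 in controls. Every carnosine value was below every control value. PDK1 fell to 13.2 ± 2.6 CPM with carnosine, against 28.5 ± 3.9 CPM in controls (SD, n = 2 each), 2.15-fold lower. The log2 value was -1.11 ± 0.17 (SE), with an adjusted p of 0.0182 from the same test, which gives every adjusted p below unless another tool is named. A larger change was seen in 6.19% of genes tested. In a test against a fold of 1.5 neither kinase passed (adjusted p = 0.0770 for PDK4 and 0.190 for PDK1). Each passed in the other 13 of 14 alternative settings, and the adjusted p over all 14 lay between 8.20e-17 and 0.0770 for PDK4 and between 8.88e-27 and 0.190 for PDK1. The lowest values came from edgeR with the replicate number as a block, which called 5767 of the 16340 genes. Without any single library the log2 fold change of PDK4 stayed between 1.62 and 1.92 and that of PDK1 between -1.33 and -0.93.

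**Figure D1:**
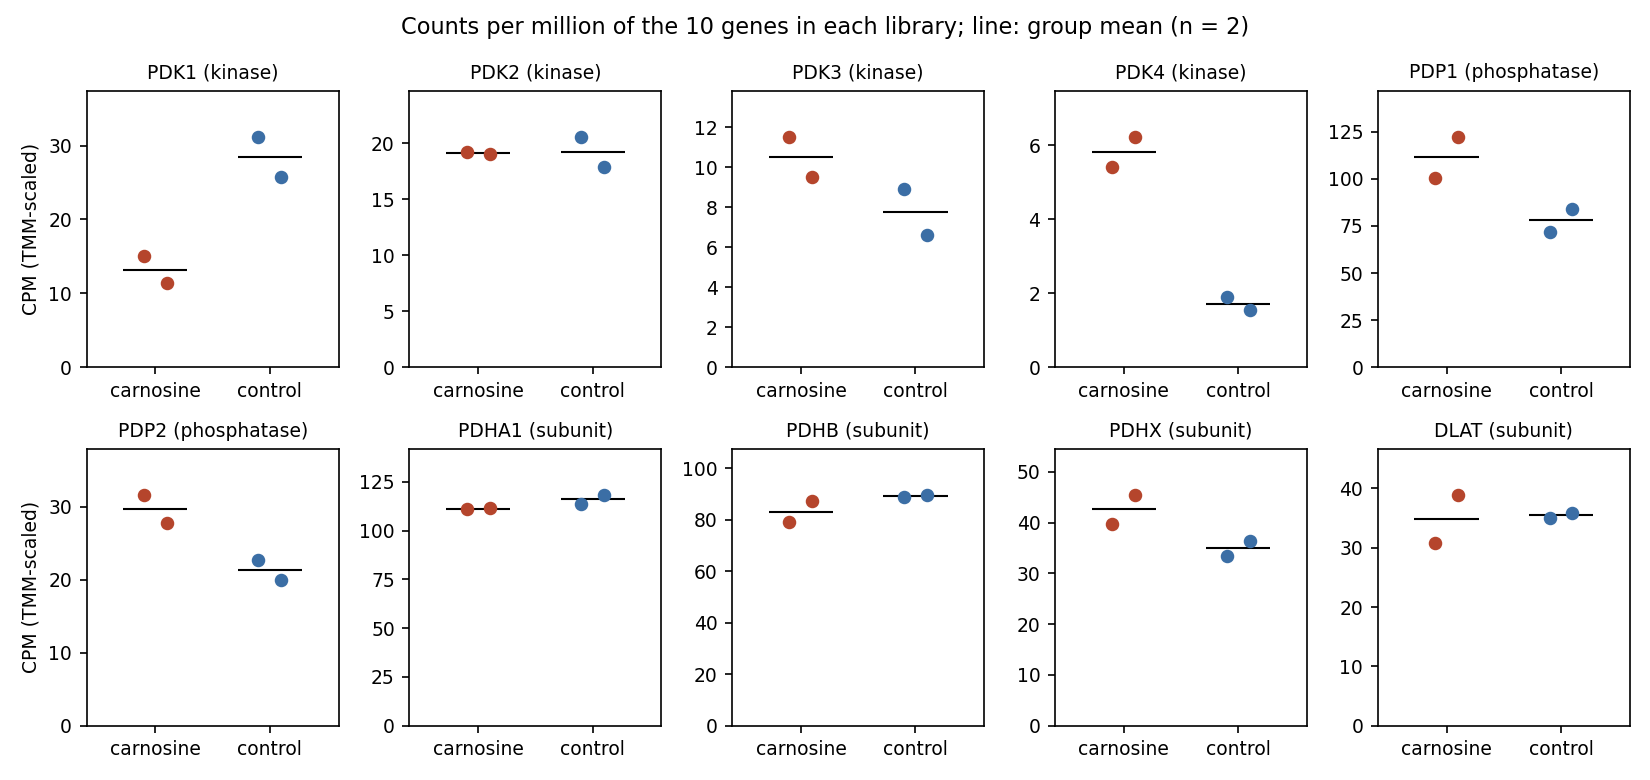
CPM (TMM-scaled) of the 10 genes, with the carnosine libraries at the left and the control libraries at the right of each panel. Points are libraries, lines are group means (n = 2) and each axis starts at 0. PDK4 averaged 5.83 CPM with carnosine and 1.71 CPM in controls, and PDK1 averaged 13.2 CPM with carnosine and 28.5 CPM in controls.

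The remaining kinases did not pass. PDK2 (ENSG00000005882.11, chromosome 17, 50094737 to 50112152), the broadly expressed isoform, had 19.3 and 19.0 CPM with carnosine and 20.6 and 17.9 CPM in controls. The carnosine values lay inside the range of the controls, and the log2 fold change of -0.01 had a 95% interval from -0.29 to 0.28 (adjusted p = 0.975). Its sign turned to 0.01 with upper-quartile scaling and to 0.02 with total counts only. Of its exonic bases, 38.6% lie under exons of the opposite strand, those of SAMD14, which itself had 55 counts over all 4 libraries. PDK3 (ENSG00000067992.12, X chromosome, 24465221 to 24541862), known for a high activity that pyruvate restrains little, had 11.5 and 9.51 CPM with carnosine and 8.92 and 6.63 CPM in controls. Its groups did not overlap, yet the lower carnosine library and the higher control were close, and the log2 fold change of 0.44 ± 0.19 was not past the threshold (95% interval -0.02 to 0.89, adjusted p = 0.201). It was 0.66 without control replicate 1, 0.24 without control replicate 2 and 0.29 without carnosine replicate 1, and no single library left out brought it past the threshold (adjusted p from 0.125 to 0.666).

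Both phosphatases were higher with carnosine in every library and missed the threshold narrowly. PDP1 (ENSG00000164951.15, chromosome 8, 93857807 to 93926066), the calcium-stimulated catalytic subunit, had 6049 and 6165 counts with carnosine and 5117 and 4943 counts in controls. That gave 100.6 and 122 CPM with carnosine and 72.0 and 84.2 CPM in controls, so the groups did not overlap. The log2 fold change was 0.51 ± 0.13 (95% interval 0.19 to 0.83, 1.43-fold, adjusted p = 0.0629). PDP2 (ENSG00000172840.6, chromosome 16, 66878589 to 66895754), the insulin-responsive catalytic subunit, had 31.6 and 27.7 CPM with carnosine and 22.6 and 19.9 CPM in controls. Its log2 fold change was 0.48 ± 0.12 (95% interval 0.18 to 0.77, 1.39-fold, adjusted p = 0.0616). DESeq2, which called 7.15% of its genes higher and 8.16% lower, called both, with adjusted p values of 0.0104 for PDP1 and 0.0235 for PDP2, and limma-voom, with 3.84% higher and 4.25% lower, called neither. PDP1 passed in 5 and PDP2 in 4 of the 14 alternatives, whose adjusted p ranged from 1.64e-08 to 1 and from 2.27e-06 to 1. The lowest values came from edgeR with the replicate number as a block, which called 5767 of the 16340 genes. With no filter on low counts, where both phosphatases also passed, 3145 genes were called. Without carnosine replicate 1 PDP1 was called (0.0235), and without carnosine replicate 2 PDP2 was called (0.0374).

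Transcripts of the complex itself stayed within a narrow range of log2 fold changes, from -0.10 to 0.29, and none passed with edgeR, DESeq2 or limma-voom. At an unadjusted p under 0.05 there was 1 of the 4, PDHX, where 27.4% of all genes tested lay under that value. PDHA1 (ENSG00000131828.13, X chromosome, 19343893 to 19361705), the E1 alpha subunit that the kinases phosphorylate, had 111.2 and 111.4 CPM with carnosine and 113.9 and 118 CPM in controls. Its log2 fold change was -0.06, with a 95% interval from -0.28 to 0.16 (adjusted p = 0.735). PDHB (ENSG00000168291.12, chromosome 3, 58427630 to 58433857), the E1 beta subunit, had 79.2 and 87.3 CPM with carnosine and 88.8 and 89.6 CPM in controls, a log2 fold change of -0.10 (95% interval -0.33 to 0.13, adjusted p = 0.567). For both E1 genes the carnosine libraries were lower by a small margin without overlap. Missing the threshold does not show that the groups were equal.

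DLAT (ENSG00000150768.15, chromosome 11, 112024814 to 112064390), the E2 acetyltransferase, had 30.9 and 38.9 CPM with carnosine and 35.0 and 35.8 CPM in controls. The carnosine libraries lay on both sides of the controls (log2 fold change -0.02, 95% interval -0.33 to 0.28, adjusted p = 0.928), and the sign turned to 0.13 without carnosine replicate 1. PDHX (ENSG00000110435.11, chromosome 11, 34915829 to 35020591), the E3-binding protein, had 39.8 and 45.4 CPM with carnosine and 33.5 and 36.4 CPM in controls. It was higher in both carnosine libraries, with a log2 fold change of 0.29 ± 0.11 (95% interval 0.02 to 0.55, adjusted p = 0.152), and of 0.19 without carnosine replicate 2. Exons of the opposite strand cover 6.89% of the exonic bases of PDHX, where APIP had 5930 counts over all 4 libraries, and 21.3% of those of PDHA1, where MAP3K15 had 3 counts.

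**Figure D2:**
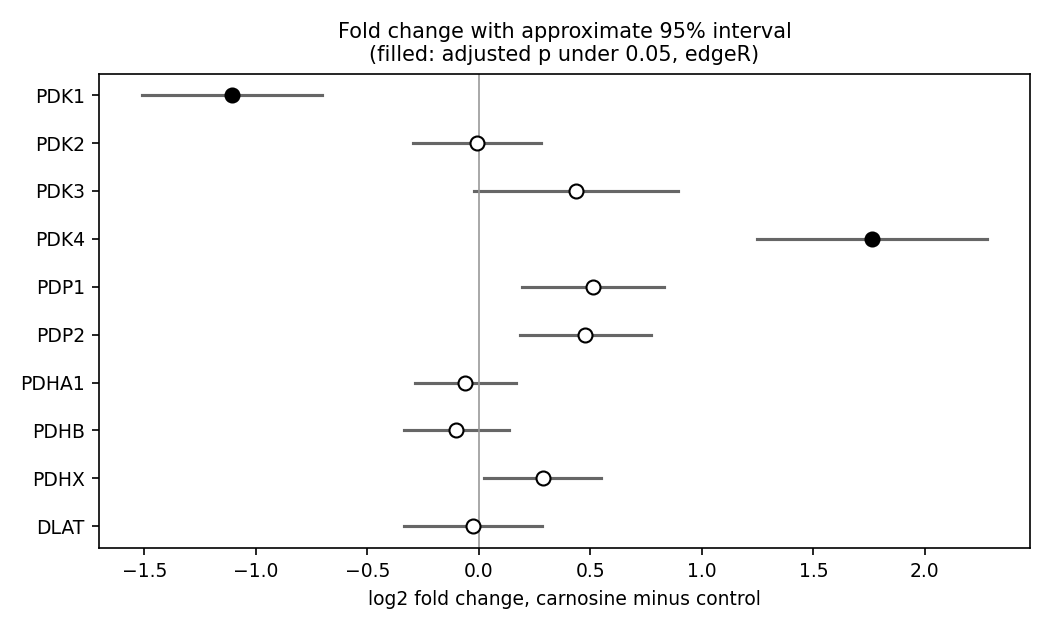
Log2 fold change of each gene, carnosine minus control, with its approximate 95% interval (not adjusted for the number of genes). Filled points passed at an adjusted p under 0.05: PDK4 at 1.76 and PDK1 at -1.11. Intervals of PDP1, PDP2 and PDHX lie above 0 although their adjusted p values were 0.0629, 0.0616 and 0.152.

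Beside the 2 called members, 8 did not pass. Groups did not overlap for 8 members, 5 higher and 3 lower with carnosine, where 56.5% of all genes tested had groups apart, 27.8% higher and 28.8% lower. The median log2 fold change of the members was 0.14, against 0.0009 over all genes tested. The 2 phosphatases had a median of 0.50, the 4 kinases one of 0.21 spread from -1.11 to 1.76, and the 4 subunits one of -0.04.

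Levels were then set side by side as CPM per kilobase of exon, the union of all annotated exons. With carnosine the order was PDHA1 (24.8 ± 0.03), PDP1 (19.9 ± 2.8), PDHB (17.6 ± 1.2), PDHX (11.3 ± 1.1), DLAT (7.22 ± 1.2), PDP2 (3.54 ± 0.33), PDK2 (3.49 ± 0.03), PDK3 (2.13 ± 0.29), PDK4 (1.29 ± 0.13) and PDK1 (0.887 ± 0.18; SD, n = 2). In controls it was PDHA1 (25.8 ± 0.68), PDHB (18.9 ± 0.12), PDP1 (13.9 ± 1.5), PDHX (9.29 ± 0.54), DLAT (7.34 ± 0.12), PDK2 (3.51 ± 0.35), PDP2 (2.55 ± 0.23), PDK1 (1.91 ± 0.26), PDK3 (1.57 ± 0.33) and PDK4 (0.378 ± 0.055; SD, n = 2). So on this scale subunits and PDP1 were the abundant transcripts and the kinases the scarce ones. For PDK1 that contrast rests on the scale, as 1372 of its 14883 exonic bases are coding, against 1941 of 4831 for DLAT. The size of the contrast for PDK2 depends on the scale too, as 1221 of its 5481 exonic bases are coding. Levels of the single subunits per kilobase of coding length are not given here. The neighbours PDP1 and PDHB with carnosine, PDP2 and PDK2 with carnosine, and PDK1 and PDK3 in controls differed by less than the sum of their SDs. PDK4 was the least abundant kinase in both control libraries, and in both carnosine libraries PDK1 was.

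In both carnosine libraries PDK4 took a larger and PDK1 a smaller share of the kinase pool than in either control. PDK4 made up 14.9% and 18.3% of the summed kinase level per kilobase of exon with carnosine, against 5.17% and 5.08% in controls. PDK1 made up 12.6% and 10.1% with carnosine and 25.98% and 25.90% in controls. The control libraries nearly coincided in both shares, and the carnosine libraries differed more. PDK3 held 28.9% and 25.5% with carnosine and 22.3% and 20.1% in controls, and PDK2 43.6% and 46.1% with carnosine and 46.5% and 49.0% in controls. The ratio of PDK4 to PDK1 was 1.19 and 1.81 with carnosine and 0.199 and 0.196 in controls, and its group mean was 7.58-fold higher with carnosine. Gene length cancels in that fold, so it is the same by arithmetic for any length used. The ratio was chosen after its values were seen and is given as a description, with no test.

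The order of the kinases rests on the length chosen, since annotated exons of PDK1 span 14883 bases, of which 1372 are coding, while those of PDK4 span 4519 bases with 1233 coding. Per kilobase of coding length, PDK1 led the controls with 47.1% and 46.9% of the pool and held 27.2% and 22.6% with carnosine, where PDK2 led with 39.0% and 42.7%. PDK4 then had 10.9% and 13.8% with carnosine, against 3.16% and 3.11% in controls, and remained the least abundant kinase in all 4 libraries. In each of the 3 lengths tried PDK4 took more and PDK1 less of the pool in both carnosine libraries than in both controls. The summed kinase level was 8.05 and 7.54 CPM per kilobase of exon with carnosine and 8.07 and 6.68 in controls, so the groups overlapped. Per kilobase of coding length it was 40.4 and 36.6 with carnosine and 48.3 and 40.0 in controls, which turned the direction of the means and left the groups overlapping.

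**Figure D3:**
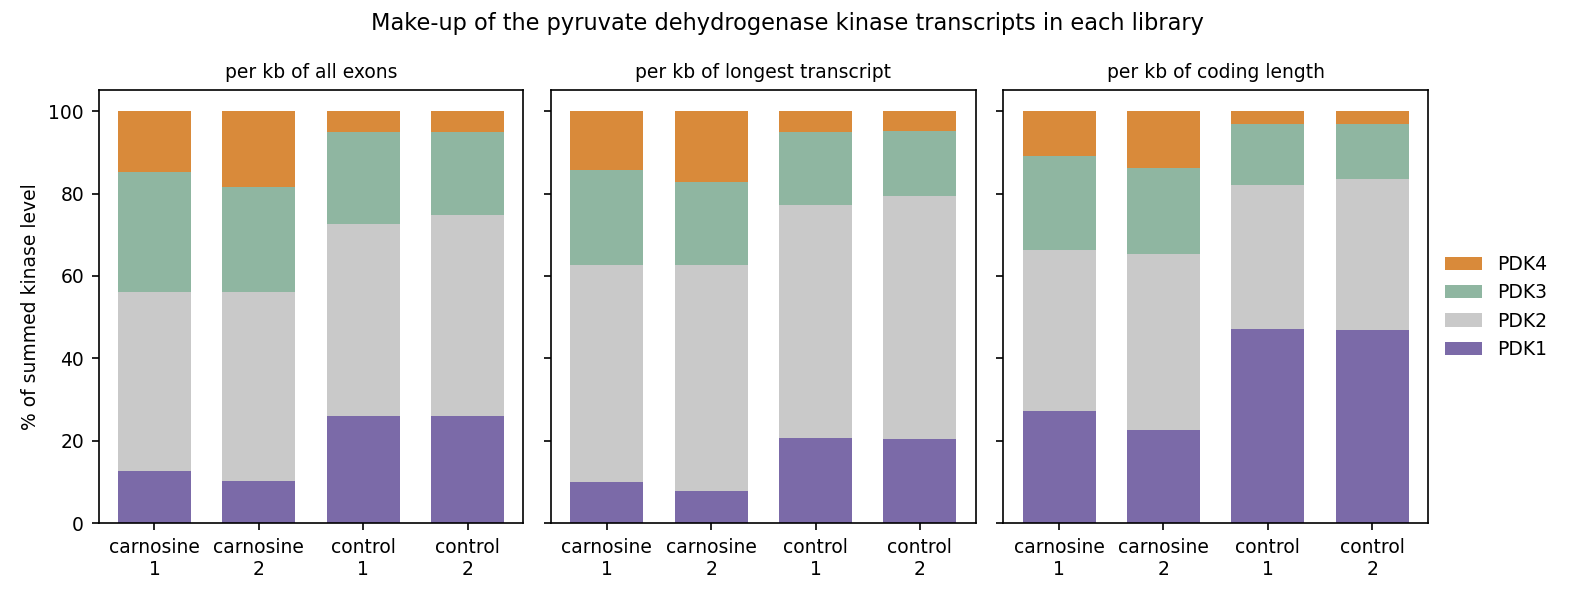
Share of each kinase in the summed kinase level of each library, in percent, with levels divided by all exonic bases, by the longest transcript or by coding length. Per kilobase of exon PDK4 took 14.9% and 18.3% with carnosine and 5.17% and 5.08% in controls, and PDK1 took 12.6% and 10.1% with carnosine and 25.98% and 25.90% in controls.

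Set against the phosphatases, the summed kinase level was 0.371 and 0.300 of the summed phosphatase level with carnosine, and 0.519 and 0.383 in controls, per kilobase of exon. The carnosine ratios were the lower ones without overlap, by a margin that is small beside the gap between the controls. With coding length the ratios were 0.508 and 0.406 with carnosine and 0.848 and 0.640 in controls. PDP1 supplied 82.6% and 86.8% of the phosphatase level with carnosine and 82.6% and 86.3% in controls. Within the E1 enzyme, the ratio of PDHA1 to PDHB was 1.47 and 1.34 with carnosine and 1.35 and 1.38 in controls, which overlap. The ratio of PDHX to DLAT was 1.658 and 1.502 with carnosine and 1.23 and 1.30 in controls, without overlap.

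Among partner and lipoylation genes of the complex none passed. DLD, the E3 enzyme shared with related complexes, had 86.5 and 103.7 CPM with carnosine and 91.2 and 89.7 CPM in controls (log2 fold change 0.07, adjusted p = 0.740). GLRX5, an iron-sulfur cluster carrier needed for lipoate synthesis, stood at 0.03 on the log2 scale (adjusted p = 0.888). Exons of the opposite strand cover 18.2% of the exonic bases of GLRX5, where SCARNA13 had 22022 and SNHG10 2109 counts over all libraries. Of the 7 tested partner and lipoylation genes none passed with edgeR, DESeq2 or limma-voom, and 5 had a log2 fold change below 0 (median -0.21). An unadjusted p under 0.05 was found for 2 of the 7, near the share of 27.4% over all genes tested. PDHA2, the testis form of E1 alpha, had 0 counts. Among 4 genes of thiamine supply, the cofactor of E1, SLC19A2, a thiamine transporter of the plasma membrane, rose 1.71-fold, with 1000 and 1179 counts with carnosine and 812 and 704 counts in controls (log2 fold change 0.77 ± 0.18, adjusted p = 0.0452). It missed the threshold in limma-voom (adjusted p = 0.0549) and without control replicate 1, control replicate 2 or carnosine replicate 2 (adjusted p from 0.0764 to 0.105 in these 3, with log2 fold changes from 0.50 to 0.81). The other 3 genes had log2 fold changes below 0 and did not pass. Over all genes tested, 3.95% passed higher and 4.36% lower.

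The sister complex of branched-chain amino acids has a kinase and a phosphatase of its own, and both passed, in opposite directions. Of the 8 tested genes of related complexes 1 rose and 1 fell, beside 3.95% higher and 4.36% lower over all genes tested. BCKDK, the kinase that switches that complex off, had 33.5 and 34.9 CPM with carnosine and 56.5 and 57.0 CPM in controls, a fall of 1.66-fold (log2 fold change -0.73 ± 0.09, adjusted p = 0.0125). PPM1K, the phosphatase that switches it on, had 21.3 and 22.0 CPM with carnosine and 13.7 and 13.8 CPM in controls, a rise of 1.58-fold (log2 fold change 0.66 ± 0.11, adjusted p = 0.0224). Replicates nearly coincided for both genes, and the groups were far apart beside that spread. Per kilobase of exon, BCKDK stood at 4.63 and 4.65 times PPM1K with carnosine and at 12.1 and 12.1 times in controls. Leaving out control replicate 1 or control replicate 2 ended the call of PPM1K (adjusted p = 0.0889 and 0.0853), at log2 fold changes of 0.65 and 0.66. The subunits of the related complexes (BCKDHA, BCKDHB, DBT, OGDH, DLST and DHTKD1) did not pass, and the median of the 8 tested genes of the list was 0.004.

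Around pyruvate itself, 1 of 13 tested genes rose and 1 fell, where 3.95% of all genes tested rose and 4.36% fell. DESeq2 called 2 higher and 1 lower, beside 7.15% higher and 8.16% lower over all its genes. With limma-voom these counts were 1 and 1, beside 3.84% higher and 4.25% lower. PC, pyruvate carboxylase, which carries pyruvate into the citric acid cycle as oxaloacetate and so beside the complex, had 71.4 and 64.8 CPM with carnosine and 44.7 and 34.9 CPM in controls (1.71-fold higher, log2 fold change 0.77 ± 0.14, adjusted p = 0.0247). Leaving out control replicate 2 ended the call of PC (adjusted p = 0.0765, log2 fold change 0.60). PCK2, the mitochondrial enzyme that turns oxaloacetate into phosphoenolpyruvate, had 7.50 and 4.49 CPM with carnosine and 17.7 and 18.8 CPM in controls, a fall of 3.03-fold (log2 fold change -1.60 ± 0.23, adjusted p = 0.0170). The ratio of PC to PDHA1 per kilobase of exon was 0.486 and 0.441 with carnosine and 0.298 and 0.224 in controls. MPC1, a subunit of the mitochondrial pyruvate carrier, had 13.1 and 14.2 CPM with carnosine and 8.57 and 10.3 CPM in controls and missed the threshold (adjusted p = 0.0722), and its partner MPC2 had a log2 fold change of -0.02. LDHA, which turns pyruvate into lactate, had 0.22 and did not pass. Of the 7 tested genes that take up or make acetyl-CoA, none passed with edgeR or limma-voom, and 1 had an unadjusted p under 0.05 (27.4% of all genes). DESeq2, which called 8.16% of its genes lower, called 1 of the 7 lower. That was ACLY, the citrate lyase, with 867.4 and 870.2 CPM with carnosine and 1134 and 1044 CPM in controls. Its adjusted p was 0.128 with edgeR and 0.0466 with DESeq2. Over all alternatives it ran from 0.00429, with the replicate number as a block in edgeR, to 1. CS, citrate synthase, had a log2 fold change of 0.03.

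Factors known to act on the PDK genes were listed too, and 4 of 19 tested rose while 0 fell (median log2 fold change 0.33), beside 3.95% higher and 4.36% lower over all genes tested. DESeq2 called 5 higher and 0 lower, beside 7.15% higher and 8.16% lower over all its genes. With limma-voom these counts were 4 and 0, beside 3.84% higher and 4.25% lower. PPARGC1A, the coactivator PGC-1 alpha, had 24.2 and 24.8 CPM with carnosine and 8.94 and 9.05 CPM in controls, 2.72-fold higher (adjusted p = 0.00631). PPARA, a fatty acid receptor of the nucleus, had 112.4 and 107.4 CPM with carnosine and 55.0 and 52.1 CPM in controls, 2.05-fold higher (adjusted p = 0.00855). FOXO1 was 1.77-fold higher (adjusted p = 0.0385) and NR3C1, the glucocorticoid receptor, 1.42-fold (adjusted p = 0.0416). The call of FOXO1 ended when control replicate 1 (0.146) or carnosine replicate 1 (0.0537) was left out, and that of NR3C1 without either control (0.206 and 0.162) or carnosine replicate 2 (0.0721). HIF1A had 781.5 and 1052 CPM with carnosine and 592.3 and 604.2 CPM in controls and missed the threshold (adjusted p = 0.0610).

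Of 13 tested genes that share such factors with PDK4, 4 rose and 0 fell, with a median of 0.37, beside the same 3.95% higher and 4.36% lower over all genes. DESeq2 called 5 higher and 0 lower, beside 7.15% higher and 8.16% lower over all its genes. With limma-voom these counts were 4 and 0, beside 3.84% higher and 4.25% lower. CPT1B, the muscle form of the carnitine palmitoyltransferase, was 2.83-fold higher on few counts, 122 and 83 with carnosine and 44 and 40 in controls (adjusted p = 0.0368), and was not called without either control or carnosine replicate 1 (adjusted p from 0.0928 to 0.123). Its exons also belong to a read-through gene with CHKB, so its counts are uncertain. In the same list ANGPTL4, CPT1A, SLC25A20 and UCP3 had log2 fold changes of 0.18, 0.11, 0.24 and 0.72. ACADVL and PLIN2 had -0.13 and -0.63, and none of these genes passed. Of the 13 tested, 10 had log2 fold changes above 0 and 3 below. FBXO32, a ubiquitin ligase, was 2.59-fold and TSC22D3, a glucocorticoid-induced leucine zipper protein, 2.58-fold higher (adjusted p = 0.00806 and 0.00855), and TXNIP, which restrains glucose uptake, had a log2 fold change of 0.58 (0.0336). TXNIP was not called without either control (0.167 and 0.121). FKBP5, another glucocorticoid target, had 497 and 369 counts with carnosine and 916 and 591 in controls and missed the threshold (adjusted p = 0.0910). Of 20 tested HIF-1 targets that PDK1 belongs with, 3 rose and 2 fell, with a median of -0.13, again beside 3.95% higher and 4.36% lower over all genes. DESeq2 called 3 higher and 4 lower, and limma-voom 3 and 2, beside the shares just given for each tool. VEGFA, the vascular growth factor, the hexokinase HK2 and the glucose transporter SLC2A1 were 1.65-fold, 1.59-fold and 1.46-fold higher, while the enolase ENO2 and the mitophagy receptor BNIP3 were 1.61-fold and 1.33-fold lower. BNIP3 passed at an adjusted p of 0.0418 and was not followed in the alternative settings or with libraries left out. VEGFA, HK2 and SLC2A1 were not called without either control (adjusted p from 0.0692 to 0.167), SLC2A1 also without carnosine replicate 2 (0.0603), and ENO2 without control replicate 1 (0.113).

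**Figure D4:**
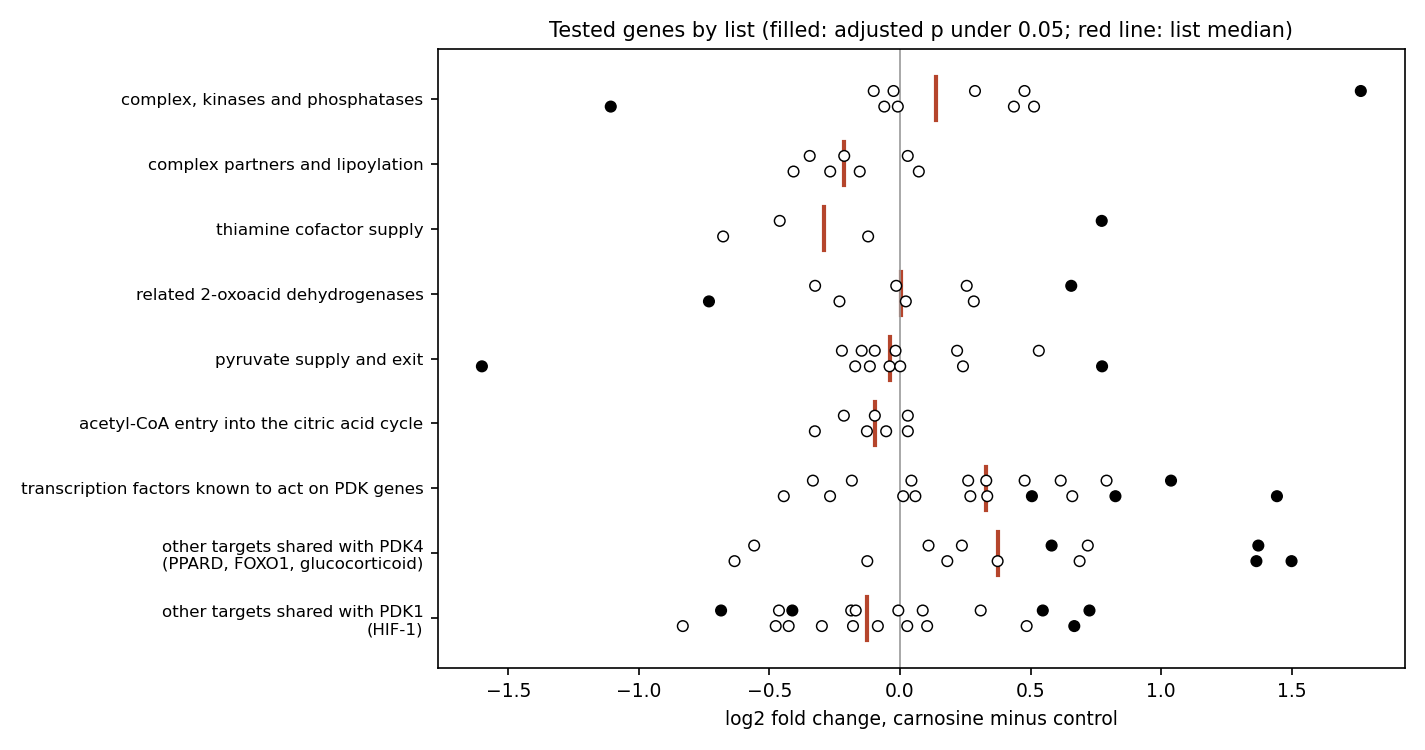
Log2 fold change, carnosine minus control, of the tested genes of each list, with filled points for an adjusted p under 0.05 and a red line at the list median. Medians run from -0.29 for thiamine supply to 0.37 for genes that share factors with PDK4, and in the top row PDK4 stands at 1.76 and PDK1 at -1.11.

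Genes whose pattern over the 4 libraries was most like that of PDK4 and PDK1 were sought among 11966 other genes with a mean count of at least 100, by the distance between centred log2 CPM values. Closest to PDK4 were TMOD1, a protein that caps actin filaments (distance 0.145, log2 fold change 1.74), GCOM1, a read-through locus (0.172, log2 fold change 1.64), and ST3GAL5, the sialyltransferase that makes the ganglioside GM3 (0.207, 3.03-fold higher). Closest to PDK1 were DCAF4, an adaptor of a ubiquitin ligase (0.0706, log2 fold change -1.06), SDSL, a serine dehydratase-like enzyme (0.0890, log2 fold change -1.04), and MAMSTR, a coactivator of MEF2 factors (0.111, log2 fold change -1.13). MAMSTR did not pass (adjusted p = 0.0512), and SDSL was not called without control replicate 1 (0.0736). With 4 libraries this likeness mostly restates the group difference and carries no test.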

How the data were processed

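Per the labels' protocols, 4 stranded total RNA libraries of U87 cells were made with an rRNA depletion step and sequenced together. The authors deposited raw counts per gene, with no normalization. The tools HISAT2 2.1.0, HTSeq 0.6.1 and bcl2fastq 2.17.0 and the build hg38 are named, per the submitters' processing notes. Not given in the sources used here are the annotation, the strand setting and the treatment of reads with several matches, so counts of overlapping genes are uncertain. The table held 0 columns of other samples.

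Groups were read from the sample titles. edgeR 4.0.16 in R 4.3.3 was run on the whole table: filterByExpr (minimum count 10, minimum total 15) left 16340 genes, libraries were scaled by TMM, and the quasi-likelihood F test (two-sided, group only, 2 residual degrees of freedom) was adjusted by Benjamini-Hochberg over all genes tested, with a threshold of 0.05. DESeq2 1.42.0 and limma-voom 3.58.1 were alternatives. The tests were also run on counts simulated without any effect shared by same-numbered libraries, and the outcome is not given here. SE is the absolute log2 fold change divided by the square root of F, and 95% intervals use the fit's total degrees of freedom, so both are approximate. Exon lengths and gene coordinates come from GENCODE 29 and promoters from RefSeq.

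Named were all members, up to 4 passing genes of each list by size of change, or the 2 with most counts where none passed, and the 3 nearest patterns to PDK4 and PDK1. BNIP3, MPC1, MPC2, LDHA, HIF1A, FKBP5, MTAP, PECAM1, RN7SL2, SOX2, the subunits of related complexes and the ratios between genes lie outside that rule and were chosen after their values were seen. So were ANGPTL4, CPT1A, SLC25A20, UCP3, ACADVL and PLIN2. Members and lists were chosen with earlier results of these data known. The labels do not say that replicates came from separate cultures, so p values measure the spread between these libraries, which may be technical. No replicate was a copy of another: the chi-square of their counts over its degrees of freedom was 53.0 for carnosine and 33.8 for controls.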

Additional observations from a re-analysis of the deposited data

How the results depend on the processing

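Over 14 alternatives to the main setting, 37 named genes gave 518 values, of which 443 kept direction and side of the threshold, 50 lost the threshold, 18 gained it and 7 turned sign. The number of members called was 2 in the main setting and with DESeq2 size factors, upper-quartile scaling, a mean count of at least 10, limma-voom or without small abundant RNAs and mitochondrial genes. It was 3 with total counts only, between 2 and 3 without single libraries, and 4 with no filter on low counts (PDK1, PDK4, PDP1 and PDP2) or with DESeq2 (the same genes). It was 0 in the test against a fold of 1.5. Genes called numbered 1358 in the main setting, 3145 with no filter, 2211 with DESeq2, 23 against a fold of 1.5, and from 505 to 1595 without single libraries, the lowest without control replicate 2 and 635 without control replicate 1.

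Replicate numbers are shared between the groups, but the labels do not say that a number marks a shared culture or day. Deviations of same-numbered libraries correlated with r = 0.31 across 16340 genes. With the replicate number as a block, 5767 genes and 6 members (PDHX, PDK1, PDK3, PDK4, PDP1 and PDP2) were called, on 1 residual degree of freedom.

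Signs turned for values near 0. With total counts only PDK2 was at 0.017, with upper-quartile scaling at 0.0087, and it ran from -0.109 to 0.092 without single libraries. Over the same left-out libraries DLAT ran from -0.204 to 0.130, DLD from -0.069 to 0.195, GLRX5 from -0.073 to 0.120 and CS from -0.050 to 0.107, all as log2 fold changes and none past the threshold. The summed kinase level moved to 38.5 CPM per kilobase with carnosine and 44.1 in controls with coding length, and to 10.4 and 9.73 with the longest transcript, from 7.80 and 7.37 per kilobase of exon. The kinase to phosphatase ratio moved to 0.457 with carnosine and 0.744 in controls with coding length. Adding counts of near copies gave no value, as no row carried such a symbol. Depth was at least 51632970 counts a library, and 2 libraries a group leave 2 residual degrees of freedom.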
